A study of Mus musculus with 16 samples.

Results

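The genes described here encode 47 carriers of amino acids and related solutes in mouse kidney cortex. They are the protein-coding genes of the families Slc1a, Slc3a, Slc6a, Slc7a, Slc36a, Slc38a and Slc43a, without Slc7a11, that had at least 10 reads in 4 or more of 16 libraries. Of 56980 gene identifiers in the count table, 63 fitted the symbols, and 16 of these did not reach the read minimum. Slc7a6os is 1 of the 47 by its symbol, but it is not a carrier. Stranded, rRNA-depleted libraries were made from the kidney cortex of male C57Bl/6J mice, 4 in each of 4 groups and all with 1 batch label. In iGKO mice a tamoxifen-activated Cre under the ubiquitous Rosa26 promoter (Rosa26-CreERT2) was crossed onto floxed Degs1 so that the gene could be deleted throughout the body, and Degs1fl/fl littermates (fl/fl) were the controls. Degs1 encodes dihydroceramide desaturase, which makes ceramide from dihydroceramide. Tamoxifen was given to both genotypes at 9 weeks (3 mg, repeated on 5 days), and the operation followed at 12 weeks. In ischaemia-reperfusion injury (IRI) the blood supply of both kidneys was clamped for 28 min, sham mice had the operation without clamping, and tissue was taken 24 h later. The groups were iGKO IRI, iGKO sham, fl/fl IRI and fl/fl sham, and libraries carry the replicate numbers 1 to 4 of the labels, as in fl/fl IRI 1. Values are listed in the order of these numbers. Nothing in the labels beyond separate samples describes the replicates, so p-values measure the spread between these samples, which may be technical.

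Nearly all amino acids filtered in the glomerulus are taken back by the proximal tubule. Carriers of the apical brush border use sodium, protons or exchange to bring them into the cell, and basolateral exchangers and facilitators pass them on to the blood. A different set of carriers supplies the cell's own needs, and several of them are induced by ATF4, the transcription factor of the integrated stress response, when amino acids run short or proteins misfold. Obligate exchangers of the Slc7a family work as pairs with a single-span heavy chain, Slc3a1 on the apical side and Slc3a2 on the basolateral side and in most other cells.

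Total counts were 12704273 to 18816343 per library, and the 47 genes held 0.378% to 0.588% of them. Levels are counts per 1000000 (CPM) after TMM scaling, a correction of library size. Degs1 stood at 44.7 to 59.8 CPM in iGKO IRI and 40.2 to 71.7 CPM in iGKO sham, against 88.8 to 133 CPM in fl/fl IRI and 84.0 to 113 CPM in fl/fl sham, so no iGKO library reached an fl/fl library after the same operation. Among IRI libraries Degs1 was lower in iGKO than in fl/fl mice (log2 fold change -1.05 ± 0.18, SE, adjusted p = 0.0325, edgeR), and among sham libraries the difference between genotypes did not pass (-0.82 ± 0.18, adjusted p = 1, edgeR). The label of kidney was checked on 11 proximal tubule markers, such as Lrp2 and Slc34a1, whose summed level was 4172 to 21570 CPM. This check does not tell cortex from whole kidney. Among the IRI libraries of fl/fl mice, fl/fl IRI 1 stood apart: 5 markers of injured tubule (Havcr1, Lcn2, Krt20, Sox9 and Vcam1) summed to 205 CPM there, against 1707, 2705 and 2176 CPM in fl/fl IRI 2, 3 and 4. It still lay above fl/fl sham, where these markers summed to 34.5, 21.5, 51.3 and 61.4 CPM. In iGKO sham they summed to 64.3, 202, 47.0 and 62.0 CPM, so iGKO sham 2 was close to fl/fl IRI 1. Mitochondrial genes took 0.443% of counts in iGKO sham 4, against 2.05% to 6.48% in the other libraries. Where it changed, the count of called members is also given without fl/fl IRI 1 and without these 2 libraries together.

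Per kilobase of exon, the scale on which genes can be compared, Slc3a1 ranked first among the 47 genes in iGKO IRI at 180.3 ± 21.6 CPM per kb (SD, n = 4). Next came Slc6a18 at 107 ± 18.4 and the creatine carrier Slc6a8 at 67.2 ± 12.3 CPM per kb. Slc6a6 at 66.9 ± 11.7 CPM per kb did not differ from Slc6a8 beyond its spread. In iGKO sham the order was Slc3a1 at 222 ± 33.0, Slc6a18 at 126 ± 12.8 and Slc7a13 at 98.2 ± 38.6 CPM per kb. In fl/fl IRI it was Slc6a18 at 153.6 ± 57.1, Slc3a1 at 122 ± 42.7 and the heavy chain Slc3a2 at 70.9 ± 21.7 CPM per kb. The spreads of Slc6a18 and Slc3a1 overlapped there, and Slc6a6 at 69.1 ± 6.88 and Slc6a8 at 66.9 ± 8.38 CPM per kb lay within the spread of Slc3a2. In fl/fl sham Slc3a1 led at 240.1 ± 31.2, followed by Slc7a13 at 148 ± 71.7, Slc6a18 at 127 ± 14.0 and the taurine carrier Slc6a6 at 70.6 ± 6.59 CPM per kb. The spreads of Slc7a13 and Slc6a18 overlapped in both sham groups. Next in fl/fl sham came Slc7a8 at 61.4 ± 0.645, Slc6a19 at 61.2 ± 17.6 and Slc6a8 at 61.0 ± 6.70 CPM per kb, which did not differ beyond their spread. Slc7a1 and Slc7a5, both of the stress-induced group, ranked 37 and 38 in fl/fl sham, at 1.21 and 1.06 CPM per kb.

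After IRI in fl/fl mice, apical carriers of cystine, dibasic, neutral and acidic amino acids were lower, and 3 stress-induced carriers were higher. Of 46 tested members, 12 passed an adjusted p of 0.05 (edgeR quasi-likelihood test, Benjamini-Hochberg over 17972 genes), 4 of them higher and 8 lower. This is 26.1% of the members, against 15.5% of all genes tested. Higher calls made up 8.46% and lower calls 7.01% of all genes. The median log2 fold change was -0.13 over the members and 0.01 over all genes. The 9 apical carriers gave 5 lower and no higher calls with a median of -0.80, the 4 basolateral carriers 1 lower call with a median of -0.82, and the 8 stress-induced carriers 3 higher calls with a median of 0.57. In bulk tissue, fewer cells of a type and less RNA per cell cannot be told apart. Of the 11 proximal tubule markers, 7 were called lower with a median of -1.35, and their summed level was 4172 to 15230 CPM in fl/fl IRI against 19320 to 21570 CPM in fl/fl sham. Neutrophil markers, summing to 24.2 to 208 CPM in fl/fl IRI against 5.38 to 11.46 CPM in fl/fl sham, were called higher in 6 of 6 (edgeR). None of 6 macrophage markers was called, and 1 had an unadjusted p under 0.05 (edgeR), against 30.7% of all genes. The part of these markers in the carrier results was not tested. Without fl/fl IRI 1, 6 members were called higher and 11 lower, with 4308 of all genes called, against 2779 in the full fit. Without iGKO sham 4 as well, there were 7 higher and 12 lower, with 5468 of all genes called. By its injury markers fl/fl IRI 1 is the fl/fl IRI library nearest sham, so leaving it out can widen this difference. With the 2 fl/fl groups fitted alone, Slc7a5, Slc7a1 and Slc38a2 were still called higher, and Slc3a1 and Slc7a8 lower. Over all genes that fit called 1523.

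Slc3a1 and Slc7a9 are the heavy and light chain of the apical exchanger for cystine and dibasic amino acids, the pair that is mutated in cystinuria. Slc3a1 stood at 351, 420.4, 396 and 469 CPM in iGKO IRI, against 483, 472, 613 and 445 CPM in iGKO sham. In fl/fl mice it stood at 419, 243, 199 and 249 CPM in fl/fl IRI, against 582, 443, 602 and 553 CPM in fl/fl sham. Within fl/fl the groups did not overlap, with fl/fl IRI 1 closest to sham, whereas the iGKO groups overlapped. The log2 fold change in fl/fl was -0.98 ± 0.20 (SE) with an adjusted p of 0.00611 (edgeR). The light chain Slc7a9 stood at 105, 63.5, 68.6 and 61.8 CPM in iGKO IRI, against 83.6, 86.0, 93.8 and 64.4 CPM in iGKO sham. The fl/fl level was 61.4, 67.6, 29.1 and 45.3 CPM in fl/fl IRI, against 72.1, 82.4, 105 and 94.5 CPM in fl/fl sham. Its fl/fl groups did not overlap, fl/fl IRI 3 was the lowest library, and iGKO IRI 1 stood above the other iGKO IRI libraries. Slc7a9 fell, with a log2 fold change of -0.80 ± 0.24 and an adjusted p of 0.0321 (edgeR). That call was lost without fl/fl IRI 3, fl/fl IRI 4, fl/fl sham 3 or fl/fl sham 4 (adjusted p 0.0773 to 0.0963). The other partner of Slc3a1 in the mouse, Slc7a13 of the straight proximal tubule, stood at 25.5, 169, 96.0 and 207 CPM in iGKO IRI, against 166, 121, 306 and 248 CPM in iGKO sham. Its fl/fl values were 192, 33.9, 34.4 and 105 CPM in fl/fl IRI, against 504, 146, 363 and 252 CPM in fl/fl sham. Its groups overlapped in both genotypes, and libraries of a single group differed several-fold. Its fl/fl log2 fold change of -1.79 ± 0.61 did not pass (adjusted p = 0.0573, edgeR). It passed with DESeq2 (0.0365), and with edgeR without a filter on low counts (0.0331). With edgeR it also passed without fl/fl IRI 1 (0.0102), iGKO IRI 1 (0.0338) or fl/fl sham 2 (0.0483). Slc22a7 and Cyp7b1, markers of the same segment, were also lowest of all 16 libraries in iGKO IRI 1, the library with the least Slc7a13, with Slc22a7 at 2.30 CPM and Cyp7b1 at 3.19 CPM. In iGKO IRI 2, 3 and 4 Slc22a7 was 46.7 to 80.1 CPM and Cyp7b1 22.7 to 46.9 CPM. They are 2 of 11 proximal tubule markers, whose sum in iGKO IRI 1 was 13540 CPM, within the 12710 to 16460 CPM of its group. The part of Slc22a7 and Cyp7b1 in the Slc7a13 values was not tested.

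**Figure D1:**
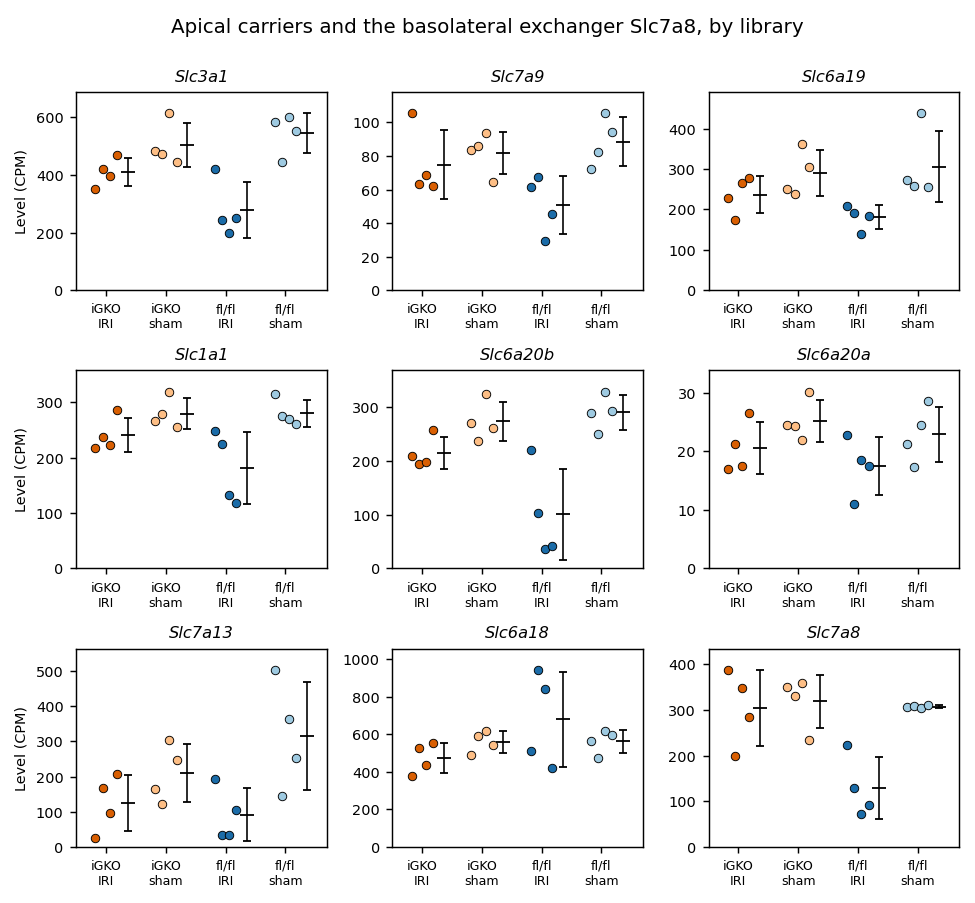
Levels (CPM, linear axes from 0) of 8 apical carriers and the basolateral exchanger Slc7a8 in each library of the 4 groups, replicates 1 to 4 from left to right. Bars give the mean and SD of 4 libraries. Slc3a1, Slc7a9, Slc6a19, Slc1a1, Slc6a20b and Slc7a8 show every fl/fl IRI library below every fl/fl sham library, and Slc6a18 does not.

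The window around the annotated start of Slc3a1 is shown because it is the 1 member window, among 31 members with a window, that holds the letters CAAAGTCCA, a sequence described for HNF4A, a transcription factor of proximal tubule and liver. Of all 27025 genes with a window, 0.555% hold the letters on either strand, against 3.23% of the members. The windows are 300 bases, 250 before and 50 after the start, from RefSeq on GRCm38.p6, and the capitals mark the match, which starts 39 bases before the gene start. The consensus of HNF1, another factor of the proximal tubule, is in no member window and in 0.0111% of all genes. A match is a description of letters and was not tested as a binding site.
Slc3a1 chr17:85028097-85028396 (+): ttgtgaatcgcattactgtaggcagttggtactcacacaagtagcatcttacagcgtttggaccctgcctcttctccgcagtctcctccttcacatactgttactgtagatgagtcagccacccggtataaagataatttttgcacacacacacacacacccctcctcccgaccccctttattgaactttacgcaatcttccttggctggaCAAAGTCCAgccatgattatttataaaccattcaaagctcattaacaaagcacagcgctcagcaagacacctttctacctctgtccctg

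Neutral amino acids enter through Slc6a19, which is mutated in Hartnup disorder, and through its relative Slc6a18 in the later proximal tubule. Slc6a19 stood at 229, 174, 266 and 278 CPM in iGKO IRI, against 250.4, 239, 363 and 306 CPM in iGKO sham. It measured 209, 189.9, 139 and 183 CPM in fl/fl IRI, against 272, 259, 438 and 256 CPM in fl/fl sham. The fl/fl groups did not overlap, and fl/fl sham 3 stood above all other libraries. Slc6a19 fell in fl/fl, with a log2 fold change of -0.77 ± 0.21 and an adjusted p of 0.023 (edgeR), and the call was lost without fl/fl IRI 3 (0.0756) or fl/fl sham 3 (0.0943). Slc6a18 was the 1 apical carrier with a log2 fold change above 0 in fl/fl, at 0.27 ± 0.22 with an adjusted p of 0.434 (edgeR). Its values were 378, 526, 438 and 554 CPM in iGKO IRI, against 487, 591, 615 and 541 CPM in iGKO sham. Levels in fl/fl were 511, 943, 841 and 419 CPM in fl/fl IRI, against 562, 474, 614 and 594 CPM in fl/fl sham. Libraries fl/fl IRI 2 and 3 were above every other library, fl/fl IRI 1 lay within the sham range, and fl/fl IRI 4 lay below every sham library. Cltrn (collectrin), which Slc6a19 and Slc6a18 need to reach the brush border, fell in fl/fl, with a log2 fold change of -0.78 ± 0.26 and an adjusted p of 0.0477 (edgeR).

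Slc6a20a takes up proline and related imino acids, and Slc6a20b is its neighbour with closely related sequence. Slc6a20b stood at 209, 194, 197 and 258 CPM in iGKO IRI, against 269, 237, 324 and 261 CPM in iGKO sham. The gene stood at 219.5, 104, 36.04 and 42.5 CPM in fl/fl IRI, against 289, 249, 328 and 293 CPM in fl/fl sham. Library fl/fl IRI 1 lay just below the sham range and the other 3 lay far below it, while the iGKO groups overlapped. Slc6a20b fell in fl/fl, with a log2 fold change of -1.53 ± 0.40 and an adjusted p of 0.018 (edgeR). Slc6a20a stood at 17.0, 21.2, 17.4 and 26.6 CPM in iGKO IRI, against 24.4, 24.3, 21.9 and 30.2 CPM in iGKO sham. Its level was 22.8, 11.0, 18.5 and 17.5 CPM in fl/fl IRI, against 21.3, 17.3, 24.5 and 28.5 CPM in fl/fl sham. All 4 groups overlapped, and the fl/fl log2 fold change of -0.39 ± 0.22 did not pass (adjusted p = 0.24, edgeR). Of the 50-base stretches of Slc6a20a transcripts, read on either strand, 15.3% also occur in Slc6a20b. Likewise 20.1% of those of Slc6a20b occur in the overlapping gene Sacm1l. Reads from such stretches cannot always be assigned to 1 gene. Slc6a20a and Slc6a20b lie on the same strand, so strand does not separate these 2 genes. Sacm1l had a log2 fold change of -0.20 ± 0.24 (adjusted p = 0.61, edgeR).

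Slc1a1 recovers glutamate and aspartate. Its level was 217, 237, 222 and 286 CPM in iGKO IRI, against 265, 279, 319 and 255 CPM in iGKO sham. Among fl/fl libraries it was 248, 224, 132 and 119 CPM in fl/fl IRI, against 316, 276, 270.1 and 260.3 CPM in fl/fl sham. Libraries fl/fl IRI 3 and 4 were lowest of all 16, and fl/fl IRI 1 lay just below sham. Slc1a1 fell in fl/fl, with a log2 fold change of -0.63 ± 0.20 and an adjusted p of 0.0451 (edgeR). This call was close to the threshold and was lost without any 1 of 12 libraries (adjusted p up to 0.134), with a replicate block (0.0548) and without a filter on low counts (0.0656). Slc1a1 shares 31.0% of its 50-base stretches with 4430402I18Rik, whose log2 fold change was -0.81 ± 0.27 (adjusted p = 0.0505, edgeR) at levels of at most 5.45 CPM. Slc3a1 likewise shares 24.8% with Prepl, which had a log2 fold change of 0.14 ± 0.16 (adjusted p = 0.595, edgeR).

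Slc7a8, the basolateral exchanger of neutral amino acids, was the 1 called member of the exit route. It measured 388, 199, 347 and 284 CPM in iGKO IRI, against 350.5, 331, 359.5 and 234 CPM in iGKO sham. Its fl/fl values were 224, 129.8, 72.2 and 90.6 CPM in fl/fl IRI, against 306, 309, 304 and 311 CPM in fl/fl sham. All 4 fl/fl IRI libraries lay below the narrow sham range, and the iGKO groups overlapped. Slc7a8 fell in fl/fl, with a log2 fold change of -1.25 ± 0.29 and an adjusted p of 0.00968 (edgeR), and kept this call without any 1 library. Slc7a7 exports dibasic amino acids with Slc3a2 and is mutated in lysinuric protein intolerance. Its values were 163, 86.5, 128 and 151 CPM in iGKO IRI, against 98.3, 101, 143 and 113 CPM in iGKO sham. In fl/fl mice it stood at 109.9, 85.1, 58.5 and 39.3 CPM in fl/fl IRI, against 86.0, 143, 134 and 105 CPM in fl/fl sham. The fl/fl groups overlapped through fl/fl IRI 1, and the log2 fold change of -0.68 ± 0.27 (adjusted p = 0.104, edgeR) passed without that library (0.0181).

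Slc43a2, a facilitator of branched-chain amino acids, stood at 410.2, 241, 316 and 311 CPM in iGKO IRI, against 308, 312, 325 and 412 CPM in iGKO sham. Levels in fl/fl were 284, 364, 122 and 250.1 CPM in fl/fl IRI, against 314, 395, 405 and 362 CPM in fl/fl sham. Both pairs of groups overlapped, and the fl/fl log2 fold change was -0.53 ± 0.25 (adjusted p = 0.157, edgeR). Slc38a3 takes up glutamine from the blood, the substrate of renal ammonia production. Its values were 208, 202, 169 and 163 CPM in iGKO IRI, against 422, 413, 242 and 149 CPM in iGKO sham. The fl/fl level was 163, 161, 43.1 and 60.6 CPM in fl/fl IRI, against 314, 116, 84.9 and 318 CPM in fl/fl sham. Sham libraries of both genotypes spread widely, with fl/fl sham 2 and 3 below fl/fl IRI 1 and 2. The fl/fl log2 fold change was -0.96 ± 0.47 (adjusted p = 0.177, edgeR).

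Slc7a5 carries large neutral amino acids into the cell in exchange for glutamine and is a known target of ATF4 and Myc. Its level was 9.43, 7.34, 6.45 and 9.66 CPM in iGKO IRI, against 4.81, 5.38, 3.35 and 3.91 CPM in iGKO sham. Its level was 9.16, 10.6, 26.0 and 18.6 CPM in fl/fl IRI, against 3.87, 4.48, 2.87 and 4.47 CPM in fl/fl sham. In both genotypes every IRI library lay above every sham library, and fl/fl IRI 3 and 4 were the highest. Slc7a5 rose in fl/fl with a log2 fold change of 2.03 ± 0.31 and an adjusted p of 0.00106 (edgeR), 4.10 times the sham mean. Slc7a1, the carrier of arginine and lysine, stood at 16.6, 22.4, 20.4 and 24.3 CPM in iGKO IRI, against 12.6, 15.4, 13.1 and 13.6 CPM in iGKO sham. It measured 21.3, 22.1, 61.3 and 70.0 CPM in fl/fl IRI, against 12.9, 12.7, 15.1 and 15.2 CPM in fl/fl sham. Again the IRI and sham libraries did not overlap in either genotype, and fl/fl IRI 1 and 2 lay within the iGKO IRI range. Slc7a1 rose in fl/fl with a log2 fold change of 1.65 ± 0.31 and an adjusted p of 0.00382 (edgeR).

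Slc38a2 takes up small neutral amino acids with sodium and is induced by amino acid shortage and hypertonicity. It measured 99.5, 151, 135 and 107 CPM in iGKO IRI, against 99.0, 112, 103 and 66.3 CPM in iGKO sham. The gene stood at 123, 157, 298 and 481 CPM in fl/fl IRI, against 82.2, 101, 96.8 and 80.1 CPM in fl/fl sham. The fl/fl groups did not overlap, the iGKO groups did, and fl/fl IRI 4 had the highest level. Slc38a2 rose in fl/fl with a log2 fold change of 1.55 ± 0.32 and an adjusted p of 0.0059 (edgeR). The calls of Slc7a5, Slc7a1 and Slc38a2 held without any 1 library.

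Slc6a9 brings glycine into the cell. Its values were 16.9, 29.0, 12.5 and 20.3 CPM in iGKO IRI, against 34.8, 26.9, 22.6 and 40.8 CPM in iGKO sham. Among fl/fl libraries it was 34.7, 50.5, 59.1 and 55.1 CPM in fl/fl IRI, against 41.6, 27.2, 25.1 and 27.7 CPM in fl/fl sham. Libraries fl/fl IRI 2, 3 and 4 were the 3 highest of all, fl/fl sham 1 lay above fl/fl IRI 1, and 3 of the 4 iGKO IRI libraries were below every sham library. The log2 fold change of 0.71 ± 0.26 in fl/fl did not pass (adjusted p = 0.0696, edgeR) and passed with DESeq2 (0.0452). With edgeR it also passed without fl/fl IRI 1 (0.0255), iGKO sham 4 (0.0483) or fl/fl sham 1 (0.0479). Slc6a9 shares 24.9% of its 50-base stretches with Ccdc24, which was at most 0.681 CPM in any library.

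Slc3a2, the heavy chain of Slc7a5, Slc7a6, Slc7a7 and Slc7a8, stood at 253, 166, 219 and 213 CPM in iGKO IRI, against 235, 232, 215 and 169 CPM in iGKO sham. The fl/fl level was 193, 219, 225 and 363 CPM in fl/fl IRI, against 169, 232, 164 and 176 CPM in fl/fl sham. Apart from fl/fl IRI 4, all libraries lay in a common range, and the log2 fold change in fl/fl was 0.43 ± 0.20 (adjusted p = 0.151, edgeR). Slc1a4 exchanges serine, alanine and other small neutral amino acids. Its values were 29.4, 44.5, 28.8 and 58.6 CPM in iGKO IRI, against 33.9, 37.8, 36.9 and 71.1 CPM in iGKO sham. In fl/fl mice it stood at 58.9, 71.7, 49.8 and 26.1 CPM in fl/fl IRI, against 47.1, 30.5, 40.5 and 44.8 CPM in fl/fl sham. In fl/fl IRI the library with the highest Slc38a2, fl/fl IRI 4, had the lowest Slc1a4, and the groups overlapped (log2 fold change 0.34 ± 0.31, adjusted p = 0.484, edgeR). Slc1a5, the glutamine exchanger, stood at 45.1, 62.2, 117 and 53.9 CPM in iGKO IRI, against 49.0, 46.8, 45.7 and 63.7 CPM in iGKO sham. Its fl/fl values were 68.9, 51.9, 61.9 and 67.4 CPM in fl/fl IRI, against 62.7, 43.5, 84.1 and 59.2 CPM in fl/fl sham. Its groups overlapped, iGKO IRI 3 was the highest library, and the fl/fl log2 fold change was 0.00 ± 0.25 (adjusted p = 0.995, edgeR). Slc7a3, another carrier of dibasic amino acids, was at most 1.09 CPM in every library.

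**Figure D2:**
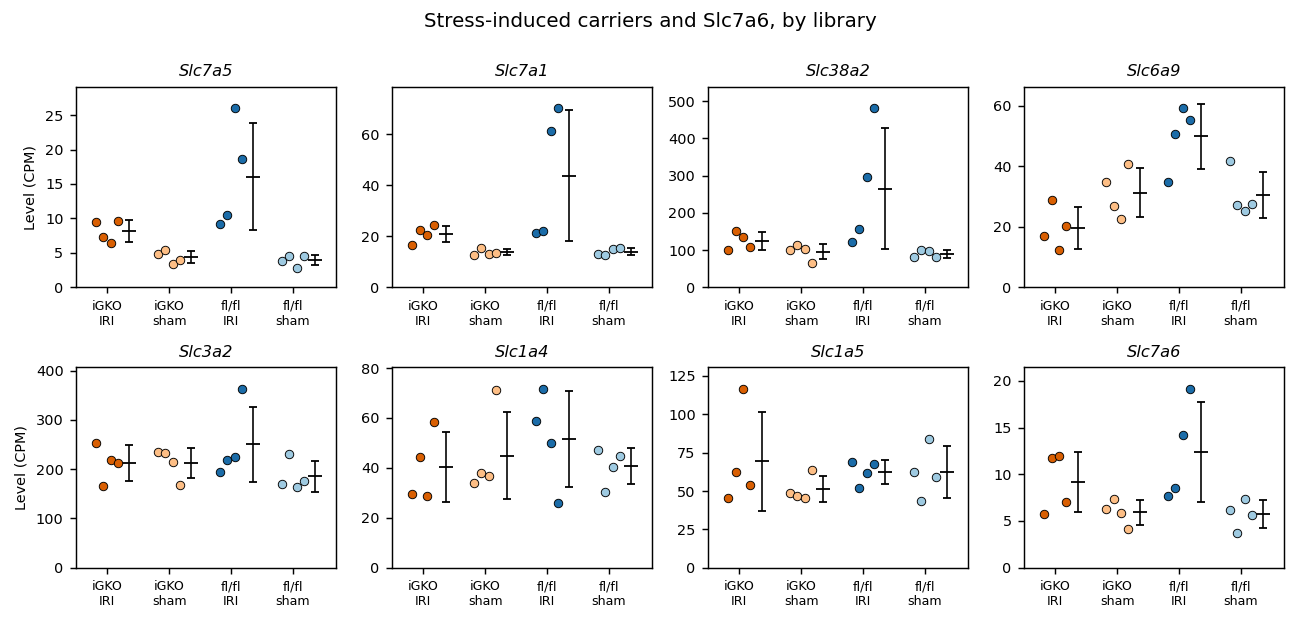
Levels (CPM, linear axes from 0) of 7 stress-induced carriers and the exchanger Slc7a6 in each library of the 4 groups, replicates 1 to 4 from left to right. Bars give the mean and SD of 4 libraries. Slc7a5 and Slc7a1 show every IRI library above every sham library in both genotypes, and fl/fl IRI 3 and 4 stand highest for Slc7a5, Slc7a1, Slc38a2 and Slc7a6.

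Start windows of 3 further members are shown because they set a called stress-induced carrier without a match beside the 2 members that have a match. The letters searched were TGATGNAA, the core of the ATF4 and C/EBP composite element, on both strands. They occur in 2 of 31 members, 6.45%, against 4.51% of all genes with a window. Slc1a4 holds the letters on the other strand, starting 4 bases before the gene start. Slc7a7, a basolateral carrier, holds them at 2 places in the window printed here, starting 141 bases and 1 base before the gene start of that window. The second of these also lies in a window of another annotated start of Slc7a7. The windows of Slc38a2, Slc7a1 and Slc6a9 do not hold these letters, and no window of Slc7a5 was used. Only 250 bases before to 50 after each start were searched, so elements elsewhere in these genes were not looked for. Capitals mark the matches, and the sequences are RefSeq on GRCm38.p6.
Slc38a2 chr15:96699679-96699978 (-): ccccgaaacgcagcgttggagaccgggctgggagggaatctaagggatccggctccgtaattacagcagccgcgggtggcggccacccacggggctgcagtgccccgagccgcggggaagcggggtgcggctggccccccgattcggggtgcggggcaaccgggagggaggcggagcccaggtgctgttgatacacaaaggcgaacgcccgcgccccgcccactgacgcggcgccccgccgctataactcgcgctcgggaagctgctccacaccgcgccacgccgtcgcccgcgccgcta
Slc1a4 chr11:20332664-20332963 (-): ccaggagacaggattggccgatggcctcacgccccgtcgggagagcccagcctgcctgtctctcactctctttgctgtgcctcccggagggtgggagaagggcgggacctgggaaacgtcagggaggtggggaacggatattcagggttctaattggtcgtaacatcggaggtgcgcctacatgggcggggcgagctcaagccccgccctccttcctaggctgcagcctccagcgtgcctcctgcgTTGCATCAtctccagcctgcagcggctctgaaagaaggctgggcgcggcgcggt
Slc7a7 chr14:54417895-54418194 (-): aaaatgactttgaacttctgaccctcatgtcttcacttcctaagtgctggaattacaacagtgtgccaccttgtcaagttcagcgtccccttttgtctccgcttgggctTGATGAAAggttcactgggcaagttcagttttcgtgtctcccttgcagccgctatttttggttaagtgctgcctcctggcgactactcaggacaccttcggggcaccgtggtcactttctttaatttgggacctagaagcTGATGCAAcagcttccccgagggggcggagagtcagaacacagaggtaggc

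Summed levels set apical reabsorption against the stress-induced carriers. The 9 apical carriers summed to 1532, 1806, 1731 and 2141 CPM in iGKO IRI, against 2030, 2050, 2658 and 2151 CPM in iGKO sham. In fl/fl mice they summed to 1886, 1817, 1428 and 1180 CPM in fl/fl IRI, against 2622, 1947, 2768 and 2334 CPM in fl/fl sham. All 4 fl/fl IRI libraries lay below all fl/fl sham libraries, and the iGKO groups overlapped. The 8 stress-induced carriers summed to 471, 484, 539.6 and 487 CPM in iGKO IRI, against 469.8, 478, 439.5 and 429 CPM in iGKO sham. They summed to 509.5, 584, 782 and 1082 CPM in fl/fl IRI, against 419.5, 452, 429 and 408 CPM in fl/fl sham. The apical sum was 3.26, 3.73, 3.21 and 4.39 times the stress-induced sum in iGKO IRI, against 4.32, 4.29, 6.05 and 5.02 times in iGKO sham. It was 3.702, 3.11, 1.83 and 1.09 times in fl/fl IRI, against 6.25, 4.31, 6.45 and 5.72 times in fl/fl sham. The fl/fl IRI ratios ran below all sham ratios, with fl/fl IRI 4 lowest and fl/fl IRI 1 within the iGKO IRI range, and the iGKO groups overlapped by 1 library. Since the members were chosen with earlier results known, these ratios are a description with no test.

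**Figure D3:**
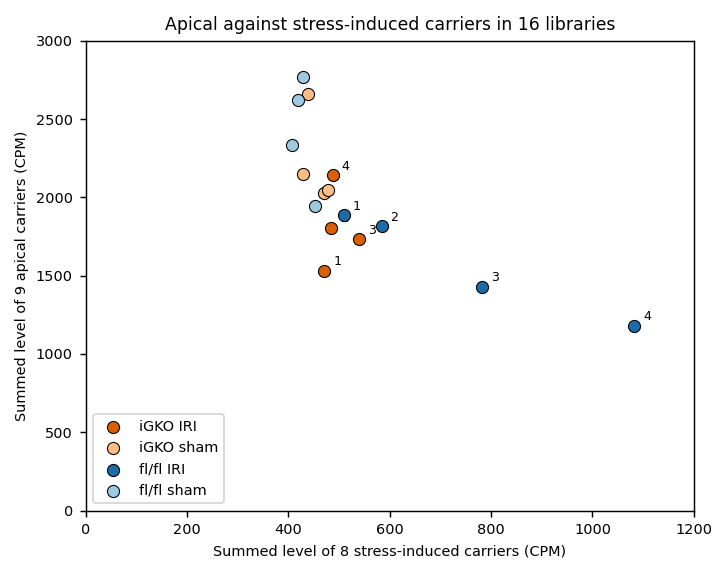
Summed level of 9 apical carriers (vertical axis, CPM) against summed level of 8 stress-induced carriers (horizontal axis, CPM) in each of 16 libraries, with IRI libraries numbered by replicate. Sham libraries of both genotypes and iGKO IRI libraries lie at 408 to 539.6 CPM on the horizontal axis, and fl/fl IRI 3 and 4 lie at 782 and 1082 CPM with apical sums of 1428 and 1180 CPM.

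Outside these lists 3 members were called in fl/fl. Slc6a13, a GABA and taurine carrier of the proximal tubule, stood at 81.5, 82.8, 90.3 and 104 CPM in iGKO IRI, against 98.7, 98.1, 127 and 122 CPM in iGKO sham. Levels in fl/fl were 93.6, 43.9, 16.0 and 26.9 CPM in fl/fl IRI, against 108, 100.1, 118 and 116 CPM in fl/fl sham. Library fl/fl IRI 1 was near the sham values and the other 3 were well below. Slc6a13 fell, with a log2 fold change of -1.29 ± 0.35 and an adjusted p of 0.0218 (edgeR), and the call was lost without fl/fl IRI 4 (0.0653), fl/fl sham 3 (0.0551) or fl/fl sham 4 (0.0514). Slc7a6, a partner of Slc3a2 that exchanges dibasic for neutral amino acids, stood at 5.79, 11.8, 12.0 and 7.03 CPM in iGKO IRI, against 6.31, 7.36, 5.81 and 4.18 CPM in iGKO sham. It measured 7.73, 8.59, 14.2 and 19.2 CPM in fl/fl IRI, against 6.16, 3.76, 7.41 and 5.66 CPM in fl/fl sham. It rose in fl/fl without overlap, with a log2 fold change of 1.11 ± 0.32 and an adjusted p of 0.0302 (edgeR), and the call was lost without any 1 of 5 libraries (0.0609 to 0.105). Slc7a6os lies on the opposite strand, the strand setting of the counting is not known here, and its log2 fold change was 0.25 ± 0.16 (adjusted p = 0.301, edgeR).

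Slc7a12, a neutral amino acid carrier of the same family, stood at 1.11, 40.4, 34.0 and 18.04 CPM in iGKO IRI, against 13.1, 14.6, 32.7 and 12.8 CPM in iGKO sham. Its level was 6.70, 0.270, 4.496 and 1.77 CPM in fl/fl IRI, against 33.2, 2.92, 30.6 and 49.0 CPM in fl/fl sham. Library fl/fl sham 2 lay within the fl/fl IRI range and iGKO IRI 1 was far below the rest of its group. Slc7a12 fell in fl/fl by 3.13 ± 0.92 (SE) on the log2 scale with an adjusted p of 0.0314 (edgeR), and the call was lost without any 1 of 6 fl/fl libraries (0.0615 to 0.0845). The straight-segment markers Slc22a7 and Cyp7b1 were low in iGKO IRI 1 too, as given above, and their part in this result was not tested.

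The abundant carriers of taurine and creatine were not called. The taurine carrier Slc6a6 had a log2 fold change of -0.03 ± 0.15 in fl/fl (adjusted p = 0.911, edgeR), with 509.5 to 632 CPM in fl/fl IRI against 536 to 671 CPM in fl/fl sham. The creatine carrier Slc6a8 had 0.13 ± 0.16 (adjusted p = 0.616, edgeR), with 301 to 391 CPM in fl/fl IRI against 283 to 364 CPM in fl/fl sham. Of the 8 tested lysosomal, proton-coupled and sodium-coupled carriers outside the lists above, none was called by edgeR and DESeq2 called 0. By edgeR 1 had an unadjusted p under 0.05, against 30.7% of all genes. This was Slc36a1, which exports amino acids from lysosomes, at 136, 128, 57.4 and 46.9 CPM in fl/fl IRI against 137, 163, 174 and 138 CPM in fl/fl sham, without overlap (log2 fold change -0.73 ± 0.29, adjusted p = 0.0966, edgeR). The other 7 had log2 fold changes of -0.20 to 0.36. Among them, Slc38a9, the lysosomal arginine sensor of the mTORC pathway, had -0.06 ± 0.16. Slc38a11 was a member by its reads but did not pass the filter of the test, at most 1.61 CPM. Of the 5 other exchangers and facilitators without a call, Slc7a10 had a log2 fold change of -3.61 ± 1.48, Slc43a1 -0.82 ± 0.47, Slc7a2 -0.21 ± 0.42, Slc7a4 -0.01 ± 0.32 and Slc43a3 0.14 ± 0.33. The 6 neurotransmitter and orphan carriers had log2 fold changes of -1.78 to 0.46, with no call by edgeR or DESeq2. Among them 1 had an unadjusted p under 0.05 (edgeR), against the same 30.7% of all genes. Without overlap, 8 members were lower and 4 higher in fl/fl IRI, against 9.82% and 9.65% of all genes.

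Genes that work with these carriers were read from lists chosen with earlier results known. Of 24 ATF4 targets outside the carriers, 17 were called higher and 1 lower in fl/fl, with a median log2 fold change of 0.92. Over all genes tested, 8.46% were called higher and 7.01% lower. Asns, the asparagine synthetase, stood at 7.73, 19.4, 39.7 and 31.5 CPM in fl/fl IRI, against 4.98, 4.22, 5.59 and 2.73 CPM in fl/fl sham, and rose with a log2 fold change of 2.49 ± 0.38 (adjusted p = 0.00119, edgeR). Mthfd2 of mitochondrial folate metabolism rose by 2.03 ± 0.33, Eif4ebp1, a repressor of translation, by 2.11 ± 0.35, and Chac1, which degrades glutathione, by 4.00 ± 0.71 on the log2 scale. The 1 lower gene was Shmt2, the mitochondrial serine hydroxymethyltransferase, with a log2 fold change of -1.11 ± 0.28 (adjusted p = 0.0161, edgeR). Of 15 partners, peptidases and other carriers, 2 were higher and 5 lower. Slc7a11, the cystine and glutamate exchanger, stood at 5.54, 11.7, 15.4 and 35.6 CPM in fl/fl IRI, against 2.37, 0.259, 0.280 and 0.349 CPM in fl/fl sham, and rose with a log2 fold change of 4.42 ± 0.75 (adjusted p = 0.00205, edgeR). The brush border dipeptidase Dpep1 fell with a log2 fold change of -1.42 ± 0.27 (adjusted p = 0.00412, edgeR), the aminopeptidase Anpep with -1.20 ± 0.33, and the lysosomal peptide carrier Slc15a3 rose with 1.08 ± 0.27. Of 12 regulators 1 was called, and it was higher. This is 8.33% of the list, near the 8.46% of all genes called higher. It was Myc, with a log2 fold change of 3.02 ± 0.39 (adjusted p = 0.000583, edgeR). Hnf4a had -0.50 ± 0.22 (adjusted p = 0.124, edgeR).

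In iGKO mice edgeR called no member after IRI, and 0% of all genes, and DESeq2 called 0 members. An unadjusted p under 0.05 (edgeR) was found for 3 of 46 tested members, against 6.37% of all genes. The median was 0.01 over the members and -0.02 over all genes. The 5 members with the smallest p were Slc7a5 with a log2 fold change of 0.91 ± 0.30 (adjusted p = 0.629, edgeR), Slc6a9 with -0.67 ± 0.26, Slc36a2 with 3.60 ± 1.55, Slc7a1 with 0.61 ± 0.31 and Slc7a6 with 0.63 ± 0.32. Only Slc7a5 and Slc7a1 had groups without overlap, both higher, against 2.24% of all genes in that direction, and no member was lower without overlap, against 2.76% of all genes. The 9 apical carriers had a median log2 fold change of -0.29, and that of Slc3a1 was -0.30 ± 0.20. Each of the 12 members called in fl/fl had a smaller change in iGKO, and 11 of them had the same sign, whereas 36 of all 46 tested had a smaller change and 31 the same sign. These 12 were chosen by their fl/fl change, so this is a description. The proximal tubule markers summed to 12710 to 16460 CPM in iGKO IRI against 17580 to 21440 CPM in iGKO sham, with a median log2 fold change of -0.46 and no call. Injured tubule markers summed to 196, 192, 118 and 200.1 CPM in iGKO IRI, against 64.3, 201.8, 47.0 and 62.0 CPM in iGKO sham. Library iGKO sham 2 thus stood above every iGKO IRI library, and its part in these results was not tested. Of the 6 macrophage markers, 3 were higher without overlap and none was called (edgeR). For 4 of them the unadjusted p was under 0.05 (edgeR), against 6.37% of all genes, and their part was not tested.

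**Figure D4:**
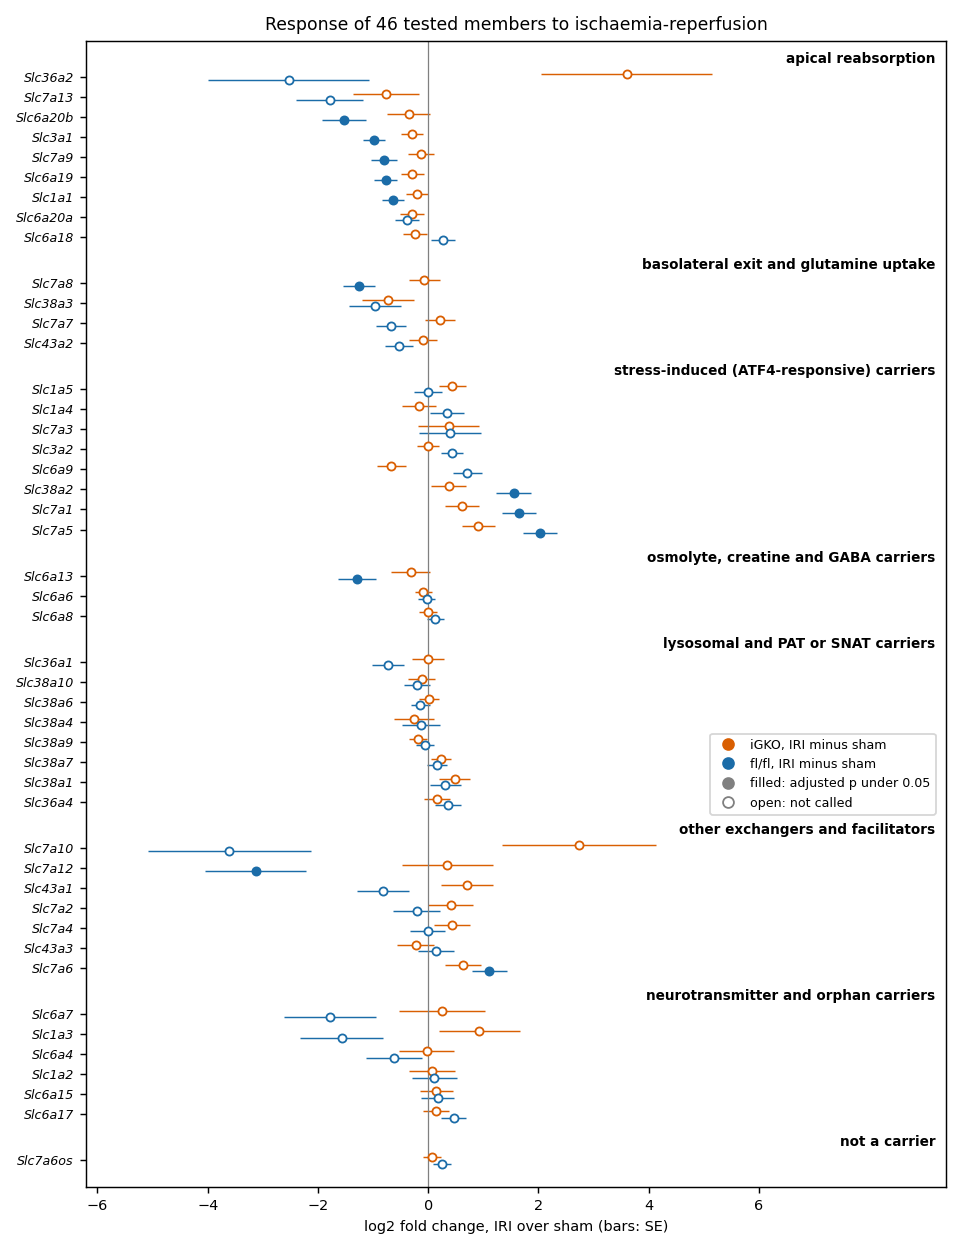
Log2 fold change, IRI over sham, of 46 tested members in iGKO (upper point of each pair) and fl/fl mice (lower point), by role, with SE bars. Filled points passed an adjusted p of 0.05 (edgeR). The 12 filled points are all in fl/fl, and each lies farther from 0 than the iGKO point beside it.

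Between genotypes after IRI, 1 member was called, the glycine carrier Slc6a9. It is 2.17% of the members, against 0.851% of all genes. Its levels, 16.9, 29.0, 12.5 and 20.3 CPM in iGKO IRI against 34.7, 50.5, 59.1 and 55.1 CPM in fl/fl IRI, did not overlap, and no other member was without overlap (3.04% of all genes were lower and 2.48% higher without overlap). The log2 fold change was -1.34 ± 0.26 with an adjusted p of 0.0392 (edgeR). The call was lost without any 1 of 13 libraries (adjusted p 0.0504 to 0.138), with a replicate block (0.0558) and when the 2 IRI groups were fitted alone (0.319). Slc7a8 was next, with a log2 fold change of 1.24 ± 0.29 and an adjusted p of 0.0516 (edgeR), and its groups overlapped through iGKO IRI 2 and fl/fl IRI 1. With edgeR Slc7a8 passed without iGKO sham 4 (0.0468) or without a filter on low counts (0.0197). DESeq2 called 6 members, of which Slc7a8 and Slc7a7 were higher and Slc6a9, Slc38a2, Slc7a1 and Slc7a5 lower in iGKO IRI. Over all genes DESeq2 called 942. Without fl/fl IRI 1, edgeR called 12 members, 8 higher and 4 lower. Calls over all genes rose with them, to 2510 from 153 in the full fit. Slc3a1, Slc6a20b, Slc1a1, Slc7a8, Slc7a7, Slc6a13, Slc7a12 and Slc36a1 were the higher, and Slc6a9, Slc38a2, Slc7a1 and Slc7a5 were the lower. That library was singled out for its low injury markers, 205 CPM, close to the 118 to 200.1 CPM of iGKO IRI. Leaving it out can widen the genotype difference through that choice, so these calls are a description. With both doubted libraries left out, 9 were higher and 4 lower, and 3833 of all genes were called. The median over all 16 libraries was 0.45 for apical, 0.82 for basolateral and -0.66 for stress-induced carriers, and -0.01 for all genes.

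Injured tubule markers moved with this comparison. Their sum was 118 to 200.1 CPM in iGKO IRI against 205 to 2705 CPM in fl/fl IRI. In sham libraries it was 47.0 to 201.8 CPM in iGKO mice, with iGKO sham 2 highest, and 21.5 to 61.4 CPM in fl/fl mice. Of these 5 markers 3 were called lower, against 0.673% of all genes. Proximal tubule markers summed to 12710 to 16460 CPM in iGKO IRI against 4172 to 15230 CPM in fl/fl IRI, with a median log2 fold change of 0.73 and no call. Neutrophil markers summed to 10.5 to 33.6 CPM in iGKO IRI against 24.2 to 208 CPM in fl/fl IRI. Fibroblast and mural cell markers summed to 841, 6327, 1707 and 1013 CPM in iGKO IRI, with iGKO IRI 2 far above the rest. In fl/fl IRI they summed to 1110, 626, 1177 and 408 CPM. The part of these markers in the carrier results was not tested. Of the ATF4 targets, Chac1, with a log2 fold change of -3.40 ± 0.67 (adjusted p = 0.0392, edgeR), and Eif4ebp1, with -1.57 ± 0.35 (0.0469), fell in iGKO IRI relative to fl/fl IRI.

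The interaction, which is the iGKO response minus the fl/fl response, tests whether the genotypes differed in their change after IRI. No member and no gene passed (0% of all genes), and DESeq2 called 0 members. An unadjusted p under 0.05 (edgeR) was found for 13 of 46 tested members, against 11.3% of all genes. The smallest p-values belonged to Slc6a9 with a log2 difference of -1.38 ± 0.36 (adjusted p = 0.262, edgeR), Slc7a10 with 6.34 ± 2.04, Slc7a8 with 1.19 ± 0.40, Slc36a2 with 6.13 ± 2.13 and Slc7a12 with 3.48 ± 1.23. Apical carriers had a median of 0.67 and stress-induced carriers of -0.77, against -0.02 for all genes. Without fl/fl IRI 1 the interaction called 6 members: Slc7a8, Slc3a1, Slc6a20b and Slc6a13 with a positive difference, and Slc6a9 and Slc38a2 with a negative one. It then called 772 of all genes, and the limit of leaving out that library, given above, holds here too. Without iGKO sham 4 as well, 4 were positive and 2 negative, with 1515 of all genes called.

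After sham, no member and no gene was called between genotypes (0% of all genes), and DESeq2 called 0 members. At an unadjusted p under 0.05 (edgeR) there were 2 of 46 tested members, against 1.17% of all genes. The 5 smallest were Slc7a10 with a log2 fold change of -3.13 ± 1.41, Slc36a2 with -3.34 ± 1.54, Slc43a1 with -0.61 ± 0.47, Slc38a6 with -0.22 ± 0.18 and Slc38a3 with 0.56 ± 0.47, each with an adjusted p of 1 (edgeR). The median was -0.03 over the members and 0.01 over all genes. No member's groups were without overlap, against 1.05% of all genes higher and 0.874% lower.

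Slc36a2, a proton-coupled carrier of proline and glycine that is also found on brown adipocytes, and Slc7a10, which is also found on white adipocytes, were highest in the same 2 libraries. Slc36a2 stood at 0.371, 1.67, 29.4 and 0.473 CPM in iGKO IRI, against 0.676, 0.248, 1.56 and 0.0674 CPM in iGKO sham. Its level was 2.94, 1.62, 0.0681 and 0 CPM in fl/fl IRI, against 2.21, 0.0649, 21.5 and 2.86 CPM in fl/fl sham. Libraries iGKO IRI 3 and fl/fl sham 3 were far above all others. Slc7a10 stood at 0, 1.97, 6.95 and 0 CPM in iGKO IRI, against 0.526, 0, 0.782 and 0 CPM in iGKO sham. It measured 0.410, 0.473, 0.0681 and 0 CPM in fl/fl IRI, against 2.77, 0, 6.29 and 2.86 CPM in fl/fl sham. Here too iGKO IRI 3 and fl/fl sham 3 were the highest. In them Ucp1, the uncoupling protein of brown fat, was 284 CPM and 279.9 CPM, and at most 27.6 CPM elsewhere. Adipoq, the adipocyte hormone adiponectin, was 37.97 and 30.54 CPM there and at most 16.99 CPM elsewhere. The 8 adipocyte markers, a list chosen after the values were seen, summed to 7.43 to 1303 CPM in iGKO IRI, 14.3 to 141 CPM in iGKO sham, 5.38 to 143 CPM in fl/fl IRI and 9.21 to 715 CPM in fl/fl sham. Their part in the values of Slc36a2 and Slc7a10 was not tested.

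**Figure D5:**
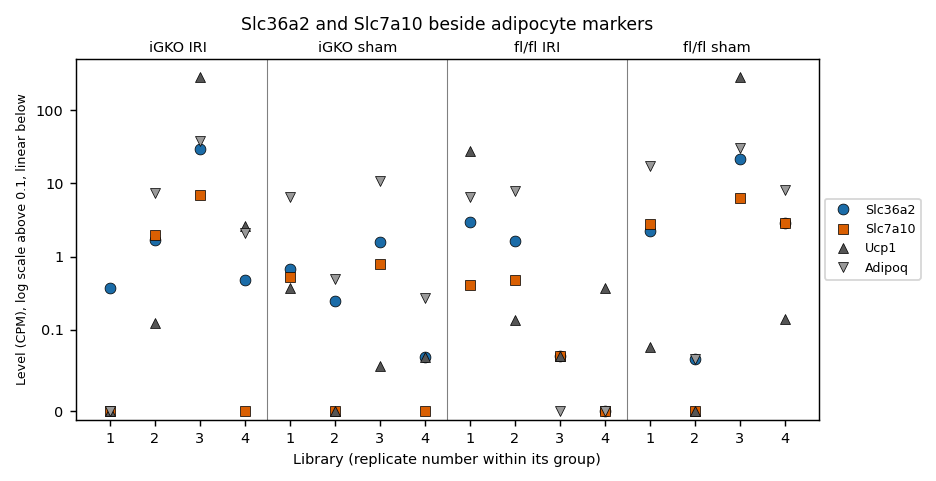
Levels of Slc36a2 and Slc7a10 beside the adipocyte markers Ucp1 and Adipoq in 16 libraries (CPM, log axis above 0.1 and linear below it). Libraries iGKO IRI 3 and fl/fl sham 3 hold the highest value of all 4 genes.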

How the data were processed

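Gene counts of stranded, rRNA-depleted libraries were used as deposited, as whole-number read counts for 56980 identifiers in 16 libraries. Per the submitters' processing notes, the tools included cutadapt 1.16, STAR 2.7.9a, featureCounts 1.6.3, DESeq2 1.36.0, FastQC, Picard and MultiQC, with the builds GRCm39 and mm39. The strand setting of the counting and the annotation release are not given in the sources used here. Symbols, gene types and summed exon lengths (for CPM per kb) came from a GENCODE annotation of GRCm38 by gene ID, with 52125 identifiers matched. The unmatched ones held 0.833% to 1.76% of counts and stayed in the tests. The counts were fitted in R 4.3.3 with edgeR 4.0.16 (quasi-likelihood, TMM, low counts filtered by group, 1 coefficient per group over all 16 libraries, 17972 genes), and p-values were adjusted by Benjamini-Hochberg over all genes at a threshold of 0.05. SE is the log2 fold change divided by the root of F. DESeq2 1.42.0, other scaling, no filter, a replicate block, the compared groups alone and leaving out each library were alternatives.

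The members, the lists and the rules were chosen with earlier results of these data known. Every library is given for apical, basolateral and stress-induced carriers with a mean of at least 1 CPM and for up to 4 called members of each other role, and where none was called the 5 smallest p-values are named. Up to 4 called genes are named from each pathway list, with Shmt2, Cltrn, Hnf4a and the overlapping genes named after their values were seen. Total counts bound the precision of low levels, where 1 read is a large step. Same-numbered libraries deviated together, at a correlation over 0.1, in 6 of 24 pairs, so the numbers were not treated as pairing the samples.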

Additional observations from a re-analysis of the deposited data

Results flagged for a closer look

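Of 92 sets of 4 libraries (23 members in 4 groups), 8 held a library far from the other 3 in its group, a pattern that chance gives in about 1 of 20 sets. Slc36a2 stood at 29.44 CPM in iGKO IRI 3 and at 21.52 CPM in fl/fl sham 3. Slc7a9 stood at 105.4 CPM in iGKO IRI 1, above the rest of that group. In iGKO sham 4, the library with the lowest mitochondrial share, Slc43a2 (412.4 CPM) and Slc1a4 (71.08 CPM) were above the other iGKO sham libraries. Slc7a12 stood at 32.69 CPM in iGKO sham 3, Slc6a19 at 437.9 CPM in fl/fl sham 3 and Slc6a9 at 41.56 CPM in fl/fl sham 1, each above the rest of its group.

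Slc6a19os, a gene antisense to Slc6a19 that is no member and was chosen after its values were seen, stood above every sham library in 4 IRI libraries. These were iGKO IRI 1 at 1.188 CPM and fl/fl IRI 2, 3 and 4 at 3.651, 3.883 and 34.88 CPM, against at most 0.866 CPM in sham libraries. Its log2 fold change in fl/fl was 5.62 ± 1.25 (SE) with an adjusted p of 0.0084 (edgeR quasi-likelihood test). Whether its reads and those of Slc6a19 were separated by strand is not known here.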

How the results depend on the processing

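The count of members called lower after IRI in fl/fl mice was 8, and it was 2 with the compared groups fitted alone and 3 to 11 without any 1 library. The higher count of 4 ran from 3 to 6 without any 1 library and was 7 without fl/fl IRI 1 and iGKO sham 4 together, an alternative chosen after seeing the data. Between genotypes after IRI, the higher count of 0 was 1 without a filter on low counts, 2 with DESeq2, 0 to 8 without any 1 library and 9 without both libraries. The lower count of 1 was 0 with a replicate block or the compared groups alone, 4 with DESeq2, 0 to 4 without any 1 library and 4 without both. The interaction gave 0 higher and 0 lower members, 0 to 4 higher and 0 to 2 lower without any 1 library, and 4 and 2 without both libraries. It was not run on the compared groups alone, since it needs all 4. The replicate block gave 4 higher and 7 lower members in fl/fl. It gave 0 in the other comparisons, and 7 of 16 libraries correlated best with their own number. Over all genes the fl/fl comparison called 2779, against 1523 with the groups fitted alone, 3702 with DESeq2 and 5468 without both libraries, and the genotypes after IRI 153, against 0 with the block or the groups alone and 942 with DESeq2. Within iGKO and after sham no member was called under any alternative run.

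Signs turned for 3 genes that were not called. Slc1a5 in fl/fl was 0.00 and ranged from -0.14 to 0.18 without any 1 library, with -0.05 without fl/fl IRI 1, -0.03 without fl/fl IRI 4, -0.02 without fl/fl sham 4, -0.04 without both libraries and -0.0027 without a filter. Between genotypes after IRI, Slc36a2 ranged from -0.43 (without iGKO IRI 3) to 3.82, Slc1a5 from -0.22 (without iGKO IRI 3) to 0.31 and Slc3a2 from -0.34 to 0.0011 (without fl/fl IRI 4). The causes were not tested. Over 61 results of single genes, 56 alternative values lost a call and 45 gained 1. With 4 libraries a group, differences missed here are not shown to be absent. Library fl/fl IRI 1 was far below the rest of its group in injury markers. Some low genes rest on few reads in part of the libraries, such as Slc7a12 with 4 to 701 and Slc36a2 with 0 to 466 reads. Slc7a5 had 41 to 381 reads per library.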

Other observations

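The serine and one-carbon genes among the ATF4 targets did not move together in fl/fl mice. Psat1 had a log2 fold change of 1.52 ± 0.42 (SE, adjusted p = 0.0238, edgeR), Phgdh 0.53 ± 0.41 (adjusted p = 0.404, edgeR) and Mthfd2 2.03 ± 0.33 (adjusted p = 0.00152, edgeR), while Shmt2 had -1.11 ± 0.28 (adjusted p = 0.0161, edgeR). These genes were picked after their values were seen. Chac1 stood at 0.446, 1.11, 1.39 and 0.811 CPM in iGKO IRI, against 0.601, 0.866, 0.391 and 1.42 CPM in iGKO sham. It stood at 1.64, 3.25, 10.5 and 24.8 CPM in fl/fl IRI, against 0.790, 0.519, 0.489 and 0.699 CPM in fl/fl sham.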
